A study of Mus musculus with 2 samples.

Results

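Granulocyte-gene-rich spots were the capture positions of the tissue sections in which transcripts of *S100a8*, *S100a9*, *Ngp* and *Camp* were most abundant. After spots with fewer than 1000 unique molecular identifiers (UMIs, each a counted transcript molecule) were left out, 5920 of 6380 spots were kept. The spots were chosen by the summed CPM of these 4 genes (a gene's UMIs scaled to a common total of all UMIs of the spot), and the top 5% of both sections together gave 296 spots, 189 in section 1 and 107 in section 2. The last spot chosen had 1146 CPM and the first left out had 1142 CPM. A spot is a small area of tissue that can hold several cells of different types, so the chosen spots were areas and not single granulocytes. They were not uniformly bone marrow: red cell genes were near 0 in some areas and very high in others, as set out below, and they are called here by the genes that chose them.

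The samples were 2 sections through 1 paraffin block that held the tibial fracture calluses of 1 control and 1 Nf1Postn mouse, harvested 10 days after a distal fracture stabilised with a pin in the marrow cavity. The control genotype was Nf1+/flox and the mutant genotype was Postn-cre;Nf1flox/-, and both animals were female and 8 weeks old at surgery. *Nf1* encodes neurofibromin, a brake on RAS signalling. In the mutant every cell carried a null *Nf1* allele, and the floxed allele could be lost where the periostin (*Postn*) promoter drives Cre, which includes periosteal progenitors. The calluses were decalcified in 14% EDTA for 3 days. Each genotype was thus 1 mouse, and the sections are repeats of the same tissue, so no difference between the calluses was tested. Intervals below are exact 95% intervals that cover counting error only, and a low level in a spot can reflect fewer cells or less RNA in each cell, which cannot be told apart. A barcode marks a position on the capture grid, and whether it lay under the same tissue in both sections is not known. Of the barcodes, 2711 lay under tissue in both sections, and 8 marked a granulocyte-gene-rich spot in both. Such spots were 189 of 3045 in section 1 and 107 of 3335 in section 2, so the 8 is no measure of repeatability.

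Granulocytes, mainly neutrophils, are made in bone marrow and pass through the blood into injured tissue. During maturation they first fill primary (azurophil) granules with myeloperoxidase and serine proteases, then secondary granules with lactoferrin, lipocalin 2 and cathelicidin, and finally switch on chemokine receptors. Neutrophils also hold the S100A8/S100A9 complex, calprotectin, in very large amounts. A tissue area with granule transcripts can therefore hold marrow that makes granulocytes, or granulocytes that have left it.

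The 4 genes that chose the spots are protein-coding and lie in 2 places in the mouse genome (GRCm39, positions as the count tables give them). *S100a8* (chr3:90576285-90577343) and *S100a9* (chr3:90599939-90603029) encode the calprotectin subunits and are neighbours. *Ngp* (neutrophilic granule protein, chr9:110248815-110252081) and *Camp* (cathelicidin, chr9:109676447-109678686) lie on chromosome 9, as does *Ltf* (lactoferrin, chr9:110848339-110871836). To show the sequence before granule genes that were high in the same spots, the 250 bases before the gene start are given for 2 that hold a C/EBP-type motif and 2 that do not. C/EBP factors are regulators of granule genes. The motif searched was TTGCNNAA and its reverse complement TTNNGCAA, which can overlap each other, and capitals mark each match. Sequences are from RefSeq on GRCm38.p6, each read 5′ to 3′ on the strand of the gene.
Ngp, chr9:110419558-110419807, plus strand: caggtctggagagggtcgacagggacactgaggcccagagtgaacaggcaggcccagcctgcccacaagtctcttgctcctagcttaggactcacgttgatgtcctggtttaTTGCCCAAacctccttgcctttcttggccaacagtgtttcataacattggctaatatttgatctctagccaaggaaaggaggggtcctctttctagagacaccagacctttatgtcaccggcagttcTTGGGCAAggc
Ltf, chr9:111019042-111019291, plus strand: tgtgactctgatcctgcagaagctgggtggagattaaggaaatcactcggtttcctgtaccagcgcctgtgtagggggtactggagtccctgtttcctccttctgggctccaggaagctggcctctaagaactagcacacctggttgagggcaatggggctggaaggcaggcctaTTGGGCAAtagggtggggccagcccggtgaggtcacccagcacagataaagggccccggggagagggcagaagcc
Camp, chr9:109849457-109849706, minus strand: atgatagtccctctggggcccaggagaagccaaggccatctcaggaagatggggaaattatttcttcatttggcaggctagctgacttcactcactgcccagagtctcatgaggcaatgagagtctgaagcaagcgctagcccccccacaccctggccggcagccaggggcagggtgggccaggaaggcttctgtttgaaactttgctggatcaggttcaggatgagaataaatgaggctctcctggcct
S100a8, chr3:90668821-90669070, plus strand: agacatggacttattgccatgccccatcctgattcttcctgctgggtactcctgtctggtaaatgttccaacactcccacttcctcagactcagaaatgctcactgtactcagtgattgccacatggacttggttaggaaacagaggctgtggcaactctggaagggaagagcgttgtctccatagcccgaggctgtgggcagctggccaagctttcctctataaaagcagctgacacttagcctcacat
*Ngp* had 2 matches, and *Ltf*, *S100a9* and *Lcn2* had 1 each. *Camp* and *S100a8* had none, which says only that these letters are not in the window. Of 32851 promoter windows in the same table, 9.56% held the motif.

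The chosen spots were unevenly spread over the calluses. In the control callus 38 of 1655 kept spots of section 1 (2.3%, 1.63 to 3.14) and 41 of 1695 of section 2 (2.42%, 1.74 to 3.27) were chosen. In the Nf1Postn callus they were 151 of 1126 in section 1 (13.4%, 11.5 to 15.5) and 66 of 1443 in section 2 (4.57%, 3.55 to 5.78). The share in Nf1Postn over that in control was 1.84 on the log2 scale, at 2.55 in section 1 and 0.92 in section 2. The sections of the control callus lay close together and the sections of the Nf1Postn callus did not.

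The counts behind a chosen spot also differed between the calluses. A chosen spot of the control callus had a median of 18.5 UMIs of the 4 genes in section 1 and 11 in section 2, with a highest of 251 and 186. In the Nf1Postn callus the medians were 4 and 3 and the highest were 42 and 21. Of the Nf1Postn spots, 104 of 217 (47.9%) were chosen on 3 or fewer UMIs, against 9 of 79 (11.4%) in control. Kept spots of the Nf1Postn callus were shallower, with a median of 2888 UMIs against 6615 in control, and a shallow spot reaches the threshold with fewer molecules. When only chosen spots with 5 or more UMIs of the 4 genes were counted, which itself asks more of a shallow spot, the shares were 2.11% and 1.89% in control and 5.06% and 1.73% in Nf1Postn. When every spot was ranked on 1000 UMIs drawn from it, they were 3.44% and 2.48% in control and 12.1% and 4.23% in Nf1Postn. Ranked by other secondary granule genes in place of the 4, they were 3.75% and 4.19% in control and 9.86% and 3.53% in Nf1Postn. Most spots taken by that ranking were not those chosen by the 4 genes. In control sections 1 and 2, 22 of 62 and 19 of 71 were shared, and in Nf1Postn 38 of 111 and 20 of 51. The other secondary granule genes included *Hp* (haptoglobin). In kept spots of control section 1 not chosen by the 4 genes, *Hp* made up 62.6 of their summed 96.8 CPM. The part of *Hp* in that ranking was not tested. The share was thus higher in Nf1Postn in section 1 under each of these choices, while in section 2 it was lower in Nf1Postn with 5 or more UMIs and with other secondary granule genes.

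**Figure D1:**
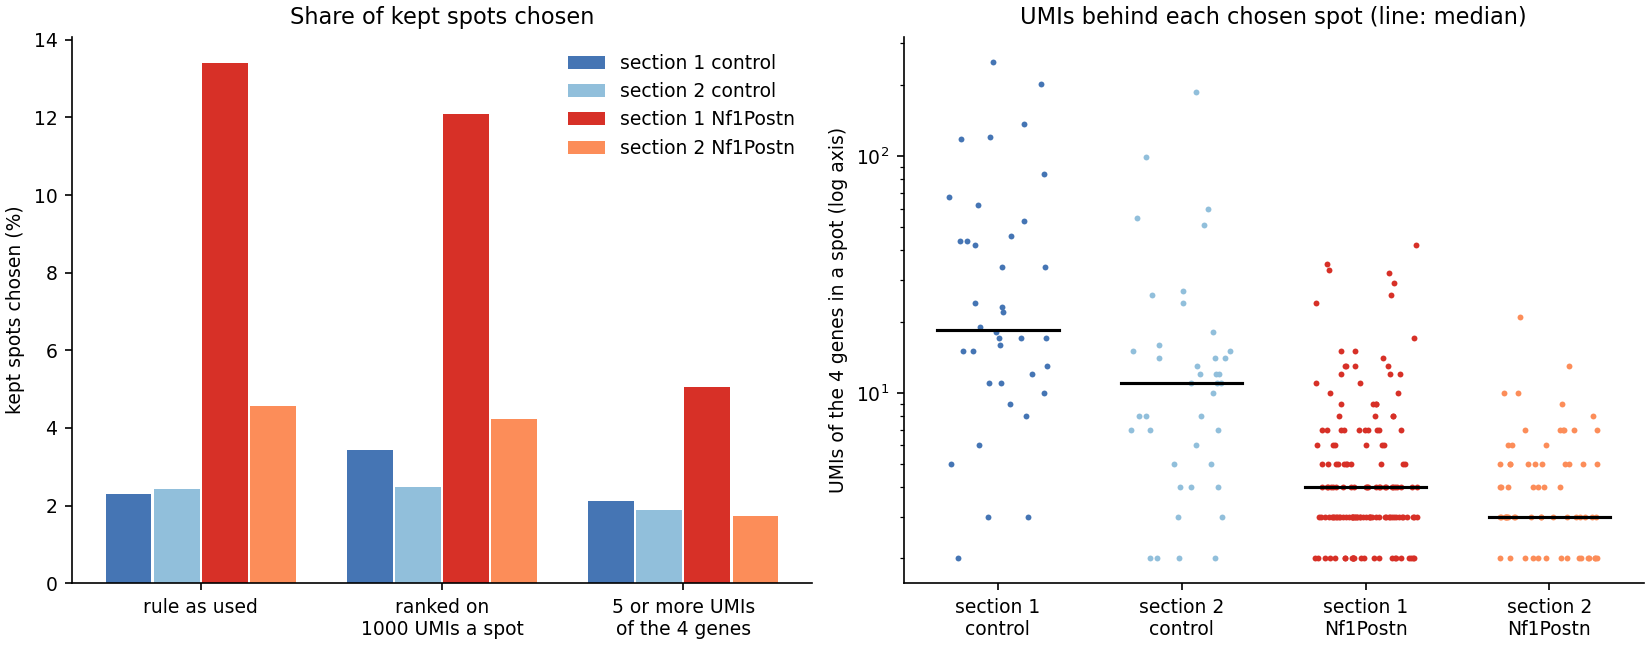
Left, the percent of kept spots chosen in each callus and section, under the rule as used, after ranking on 1000 UMIs a spot, and with 5 or more UMIs of the 4 genes. Right, the UMIs of *S100a8*, *S100a9*, *Ngp* and *Camp* in each chosen spot (log axis, line at the median), with medians of 18.5 and 11 in control and 4 and 3 in Nf1Postn.

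A level pooled over all kept spots needs no threshold per spot, though deeper spots weigh more in it. The 4 genes summed to 266 CPM (258 to 275) in control and 486 CPM (463 to 510) in Nf1Postn in section 1. In section 2 they summed to 143 CPM (136 to 150) in control and 149 CPM (139 to 159) in Nf1Postn. The calluses were thus apart in section 1 and their intervals overlapped in section 2. *Camp* was the gene with the widest gap in section 2, at 34.3 CPM (31.1 to 37.8) in control and 61 CPM (54.9 to 67.7) in Nf1Postn, while *S100a9* went the other way, at 66.6 CPM (62.1 to 71.3) and 45.6 CPM (40.3 to 51.4). The 4 genes were also found outside the chosen spots. Thinned to 1000 UMIs, 12.2% of control and 21.8% of Nf1Postn kept spots still had a UMI of the 4 genes (45% and 39.3% unthinned). In control cartilage-rich spots, an avascular tissue type, the share was 11.4% (43.6% unthinned), at median depths of 6047 UMIs there and 6615 over the control callus. In 16 Nf1Postn cartilage-rich spots it was 0% (0 to 20.6), or 6.25% unthinned. The control share is thus near that of control cartilage, and the share of spots with a UMI was not read as expression.

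The spots lay in patches. Each chosen spot was paired with every kept spot beside it, and in 586 of 1472 such pairs (39.8%) the neighbour was chosen too, where 5% of all kept spots were. A neighbour of several chosen spots counts once for each. By callus section the share of pairs was 50.5% and 48.6% in control and 38% and 30.7% in Nf1Postn, beside 2.3%, 2.42%, 13.4% and 4.57% of all kept spots there. Joined to their neighbours, the 296 spots formed 109 patches, of which 67 were lone spots and 5 had 10 or more spots. These 5 held 108 spots, or 36.5% of all. In kept spots that had not been chosen, the 4 genes were lower with distance from the nearest chosen spot, a description since these genes set which spots were left. In control section 1 the summed level was 452 CPM (398 to 512) at 1 step on the capture grid from the nearest chosen spot, 196 at 2 steps, 167 at 3 and 125 (118 to 132) at 5 or more. In Nf1Postn section 1 it was 417 CPM (375 to 462), 252, 150 and 68.6 (46 to 98.6). Section 2 went from 320 to 56.9 CPM in control and from 326 to 52.3 CPM in Nf1Postn. *Ltf* and *Lcn2*, which did not choose the spots, summed to 82.9 CPM (60.7 to 111) at 1 step and 26.8 (23.7 to 30.2) at 5 or more in control section 1, and to 66.9 (45.8 to 94.4) and 12.4 (10.2 to 15) in control section 2. In Nf1Postn they summed to 147 CPM (122 to 174) and 9.47 (2.58 to 24.2) in section 1, and to 134 (103 to 171) and 12 (8.46 to 16.6) in section 2. Their level next to chosen spots was above that at 5 or more steps in every callus section, with intervals that did not overlap.

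**Figure D2:**
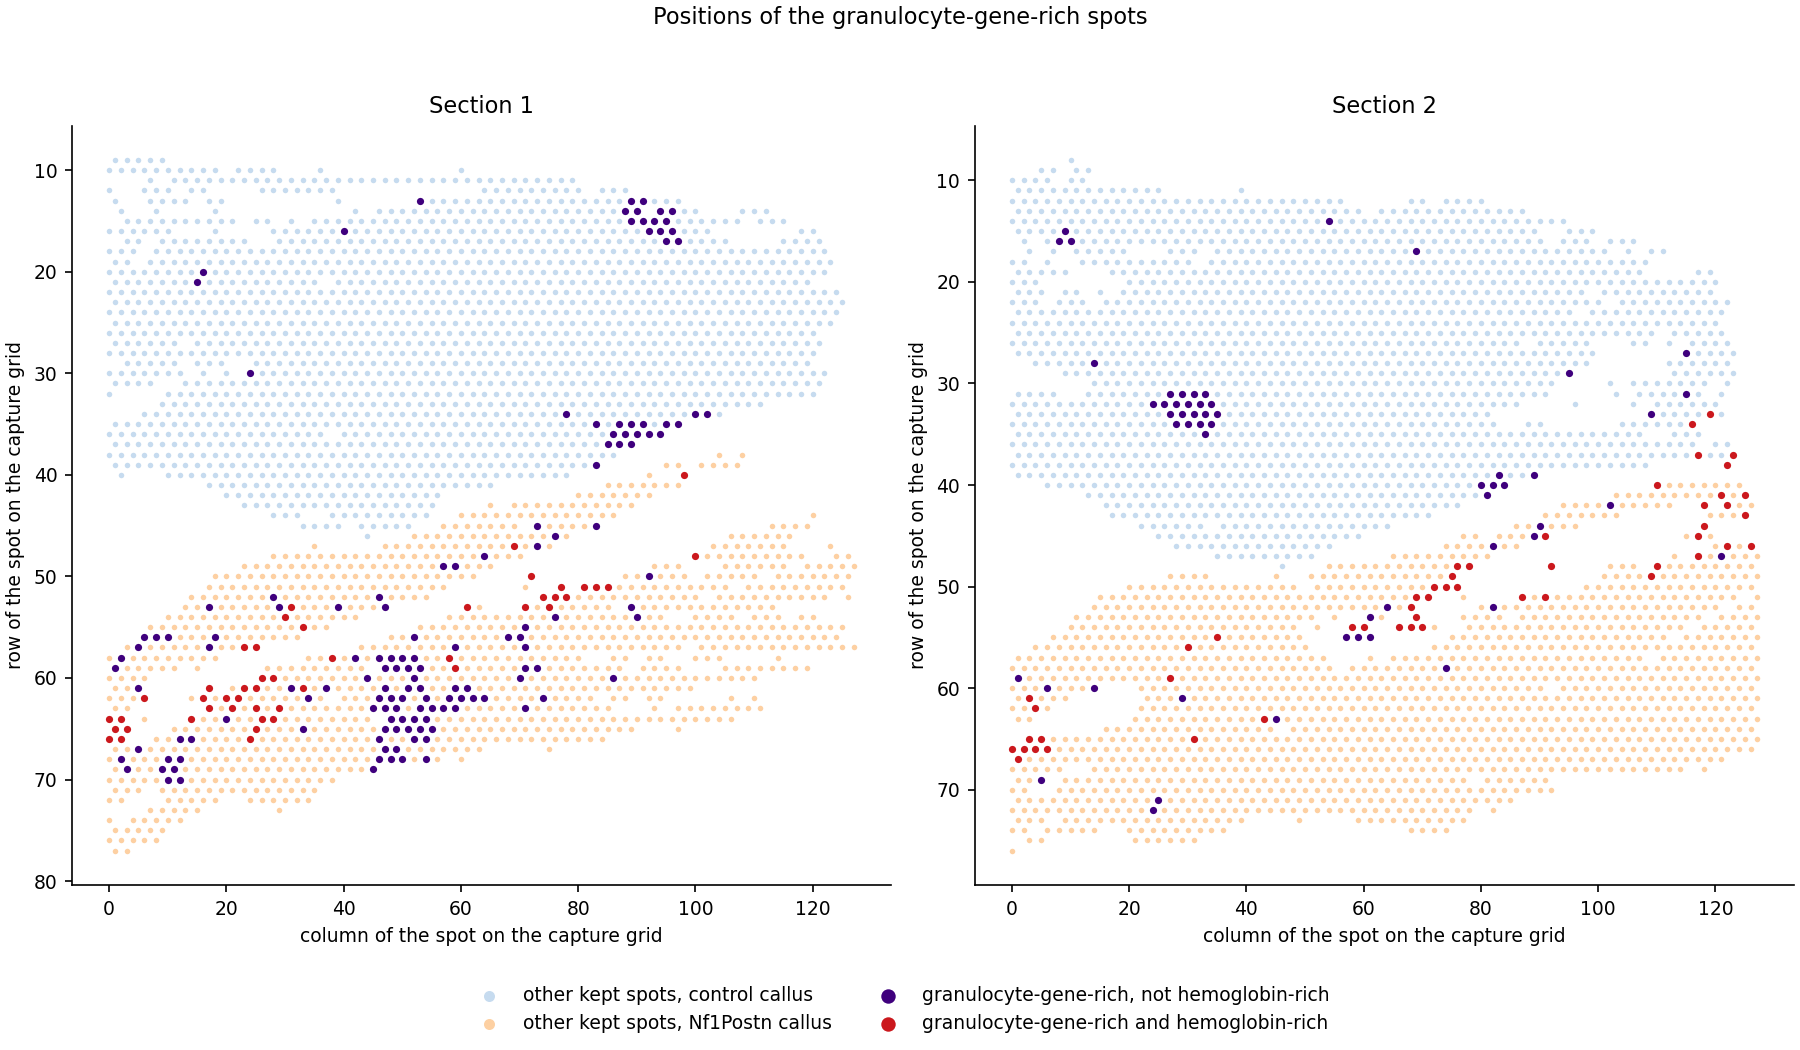
Kept spots of both sections on the capture grid (axes are the column and row of the spot), coloured by callus, with the 296 granulocyte-gene-rich spots in dark colours. Purple spots were not hemoglobin-rich and red ones were, so the compact patches of 47, 20, 15 and 13 spots are purple and the patch of 13 spots of Nf1Postn section 2 is red.

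**Figure D3:**
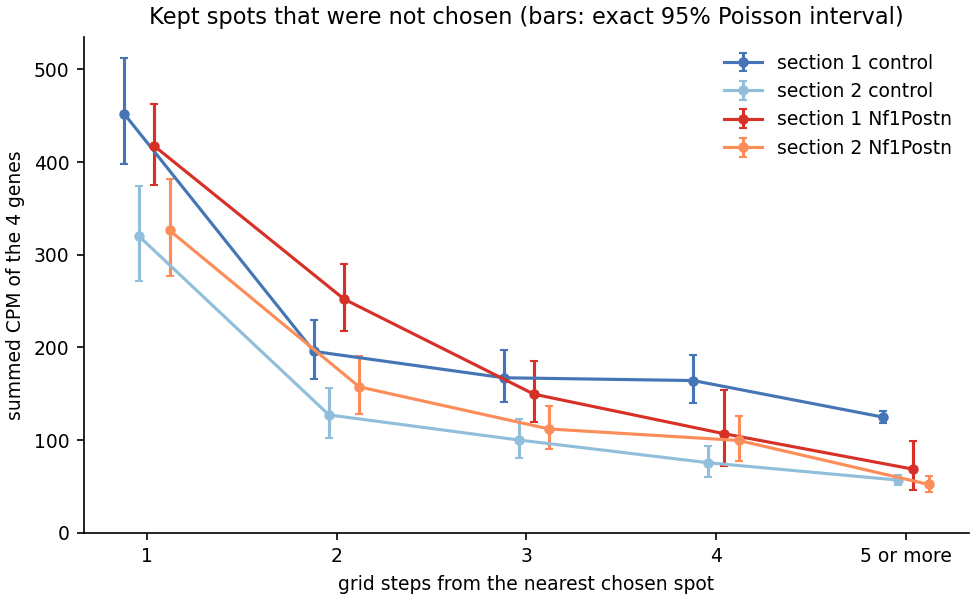
Summed CPM of *S100a8*, *S100a9*, *Ngp* and *Camp* in kept spots that were not chosen, by grid steps from the nearest chosen spot, for each callus section (bars, exact Poisson intervals). All 4 lines fall with distance, from 320 to 452 CPM at 1 step to 52.3 to 125 CPM at 5 or more.

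The levels of the choosing genes are a description, since they chose the spots. *S100a9* stood at 2858 CPM (2662 to 3064) and 1418 (1271 to 1576) in control sections 1 and 2, and at 909 (823 to 1001) and 394 (295 to 515) in Nf1Postn. *S100a8* was at 1090, 657, 429 and 416 CPM in the same order. *Ngp* was at 580, 333, 187 and 178 CPM. *Camp* was at 1394 CPM (1259 to 1541), 973 (852 to 1106), 527 (462 to 598) and 1211 (1032 to 1412). The other 3 genes were lower in both Nf1Postn sections than in either control section, and *Camp* was not.

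Other granulocyte genes were compared between the chosen spots and all other kept spots. A gene was counted as higher when its pooled CPM was at least 2-fold higher in each section. Of 11826 genes with 50 or more UMIs in each section, 180 (1.52%) were counted higher and 51 (0.431%) lower. With TMM factors the counts were 101 and 101, and by the mean of log2(CPM + 1) over spots they were 11 and 351, so the balance moved with these choices. These counts describe spots picked on granulocyte genes and are no test. The comparison also mixes the calluses, since 217 of the 296 chosen spots but 2352 of the 5624 others were Nf1Postn.

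Secondary granule genes other than those that chose the spots were among the highest. *Ltf*, which encodes the iron-binding lactoferrin, was at 699 CPM (604 to 805) and 407 (331 to 496) in control and at 238 (195 to 287) and 230 (157 to 327) in Nf1Postn, where other kept spots had 15.2, 8.46, 51 and 17.2 CPM. *Lcn2* (lipocalin 2) was at 482, 195, 111 and 96.6 CPM in the chosen spots and at 15.7, 7.95, 26.4 and 11.1 CPM elsewhere. Both were higher in every callus section, and the control level exceeded the Nf1Postn level of the same section, with intervals that overlapped only for *Lcn2* in section 2. Control spots were chosen on more UMIs of the 4 genes, and the part of this in the difference was not tested. *Hp* (haptoglobin) was at 297 CPM in the chosen spots of control section 1, where other kept spots had 62.6 CPM. In the chosen spots of control section 2 and Nf1Postn sections 1 and 2 it was at 66.5, 20 and 59.4 CPM. *Cd177* (27 UMIs over all chosen spots) and *Mmp8* (12 UMIs) were too rare to enter the count, and *Chil3* had none. Of the 3 secondary granule genes counted, 2 were higher, with a list median of 4.07 on the log2 scale beside 0.08 for all genes.

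Primary granule genes, made at the promyelocyte stage, were detected at low levels. *Elane* (neutrophil elastase) was at 65.2 CPM (38.6 to 103), 29.1 (11.7 to 60), 15.6 (6.25 to 32) and 66.9 (30.6 to 127) in the chosen spots and at 2.34 to 6.25 CPM in the others. *Mpo* (myeloperoxidase) was at 43.5, 37.4, 8.89 and 52 CPM from 32 UMIs in all, and *Ctsg* (cathepsin G) at 58, 33.3, 4.44 and 37.2 CPM from 31. *Prtn3* (proteinase 3) was at 50.7, 16.6, 20 and 0 CPM. Nf1Postn section 1 was the lowest for *Elane*, *Mpo* and *Ctsg*. A control patch of 5 spots that lay close to the Nf1Postn tissue of section 2 held 5 of the 7 *Elane* UMIs and 7 of the 9 *Mpo* UMIs of control section 2. A control patch of 13 spots close to it in section 1 held 9 of 18 *Elane* UMIs and 7 of 12 *Mpo* UMIs. Without these patches *Elane* was at 45.3 and 9.78 CPM and *Mpo* at 25.1 and 9.78 in control sections 1 and 2. Only *Elane* and *Prtn3* had enough UMIs to be counted, and both were higher.

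Of the late granule and mature neutrophil genes, 2 of 8 counted were higher and 0 lower. They were *Wfdc21* (a whey acidic protein family member) at 90.5, 37.4, 46.7 and 44.6 CPM, against 4.06 to 7.63 CPM elsewhere, and *Csf3r* (the G-CSF receptor) at 90.5, 74.8, 66.7 and 59.4 CPM, against 22.4 to 31.9. *Pglyrp1*, a granule protein that binds peptidoglycan and a gene outside the lists, was at 196, 112, 64.4 and 44.6 CPM against 6.34 to 13.5. Several genes of this list had few UMIs in the chosen spots: *Cxcr2* (a chemokine receptor) had 9 (8.17 CPM against 1.07 elsewhere), *Fpr1* (the formyl peptide receptor) 6 (5.45 against 1.42), *Retnlg* 14 (12.7 against 1.66) and *Il1b* 12 (10.9 against 8.92). *Ccl6*, a chemokine of myeloid cells, had 109 UMIs, at 83.3, 37.4, 158 and 44.6 CPM against 36.2, 32.3, 65.6 and 42.3. *Mmp9* (gelatinase B) was at 536, 1164, 793 and 557 CPM in the chosen and 1758, 1226, 737 and 293 in the other spots, a gene that osteoclasts express too.

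Among regulators, *Cebpe*, the factor of secondary granule genes, had 18 UMIs, at 29, 33.3, 4.44 and 0 CPM. Of the other factors 0 of 4 counted were higher, with *Spi1* (PU.1) at 90.5, 58.2, 35.6 and 59.4 CPM and *Cebpb*, which many cells express, at 134, 162, 227 and 245. Of the NADPH oxidase, which makes superoxide, *Ncf1* (p47phox) was the 1 of 4 counted higher, at 235, 166, 222 and 349 CPM against 69.9 to 102 CPM elsewhere. *Cybb* (gp91phox) reached 159 CPM in control section 1 and 58.2, 64.4 and 104 in the rest. Of the attractants of neutrophils 0 of 3 counted were higher, *Cxcl1* had 3 UMIs and *Cxcl5* 10. Over all genes counted 1.52% were higher, so 0 of so few is no result about the attractants or the factors above. The marrow retention factor *Cxcl12* was at 873, 524, 291 and 164 CPM against 520, 487, 286 and 223. *Ager*, *Tlr4*, *Ly96* and *Cd14*, the receptor genes for calprotectin and their partners, had 12 to 31 UMIs each. Of them 0 of 4 were higher, again beside 1.52% of all genes counted.

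Within each callus and section the list was shorter. An added comparison, chosen after seeing the data, asked for a 2-fold higher level than in the other kept spots of the same callus in each of the 4 callus sections, for genes with 20 or more UMIs in the chosen spots. Of 8216 such genes 23 (0.28%) were higher and 0 (0%) were lower. The minimum was set on the chosen spots, which lets in genes that are high there and keeps out genes that are low, so the balance of the counts is not a result. On the granulocyte lists were 6 of the 23, *Ltf*, *Lcn2*, *Elane*, *Wfdc21*, *Ncf1* and *Csf3r*. Log2 ratios over all spots were 4.59 for *Ltf*, 4.07 for *Lcn2*, 3.76 for *Pglyrp1*, 3.73 for *Padi4* (which citrullinates histones in neutrophils), 3.68 for *Elane*, 3.27 for *Wfdc21*, 1.59 for *Ncf1* and 1.47 for *Csf3r*. *Myb*, a factor of blood progenitors, was at 3.14 and *Cd79a*, a subunit of the B cell receptor, at 2.89. The other 13 were *Acap1*, *Clec4a1*, *Ctse*, *Foxp1*, *Mapk13*, *Mcemp1*, *Prkcb*, *Ptprcap*, *Rab27a*, *S1pr4*, *Septin1*, *Slfn1* and *Wdhd1*. Returning to all chosen against all other kept spots, the 12 genes outside the lists with the largest ratios and 100 or more UMIs were *Pglyrp1*, *Car2* (carbonic anhydrase 2), *H1f1* and *H4f16* (replication-dependent histones), *Alox5ap* (leukotriene synthesis), *Coro1a* (leukocyte actin regulation), *Ube2l6*, *Alms1*, *Dok3*, *Itgb2* (the leukocyte integrin beta 2 chain), *Bpgm* (a red cell enzyme of the glycolytic bypass) and *Arhgap45*. Their log2 ratios were 3.76 for *Pglyrp1*, 1.9 for *Car2*, 1.72 for *H1f1* and 1.71 for *H4f16*, and 1.13 to 1.4 for the other 8. Of the 12, *Pglyrp1* alone was also among the 23 genes higher within each callus section. The ratio of *Car2* was -1.02 and 0.47 within control and 1.41 and 3.44 within Nf1Postn, and that of *H1f1* was -0.26 and 1.02 within control and 1.34 and 3.54 within Nf1Postn.

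Red cell genes differed widely among the chosen spots. *Hbb-bs* (beta globin) was at 97.8 CPM (64.4 to 142) in control section 1, where other kept spots had 92.8, and at 761 (655 to 879) in control section 2, 2557 (2412 to 2710) in Nf1Postn section 1 and 8583 (8095 to 9092) in Nf1Postn section 2, where other spots had 151, 690 and 703. *Alas2* (erythroid heme synthesis) was at 0, 12.5, 71.1 and 201 CPM, and *Slc4a1* (the band 3 anion exchanger of red cells) at 0, 8.31, 84.4 and 163 CPM. The order of the point values was the same for all 3 genes. The 0 UMIs of *Alas2* and *Slc4a1* in control section 1 have an upper limit of 13.4 CPM each, which reaches the levels of control section 2. Over both calluses 5 of the 6 erythroid genes counted were higher, beside 1.52% of all genes counted. That comparison mixes the calluses, and 0 of the erythroid genes were counted higher within each of the 4 callus sections. When the top 5% of kept spots by hemoglobin genes were called hemoglobin-rich, 98 of the 296 granulocyte-gene-rich spots (33.1%) were in both sets, which is also 33.1% of the hemoglobin-rich set. With 5 or more UMIs of the 4 genes this was 19.5%, and with spots ranked without *Camp* it was 20.9%. This was 0 of 38 and 5 of 41 in control and 47 of 151 and 46 of 66 in Nf1Postn. Of all kept spots, 2 of 1655 and 38 of 1695 were hemoglobin-rich in control and 112 of 1126 and 144 of 1443 in Nf1Postn, so control section 1 had almost no such spots to share. Spots rich in osteoclast genes, chosen in the same way, shared 6 of the 296 spots (2.03%), and spots rich in osteocyte genes shared 7 (2.36%), where each set was 5% of all kept spots. Within the Nf1Postn callus 4 of 21 osteoclast-rich spots of section 1 (19%, 5.45 to 41.9) and 0 of 3 of section 2 (0 to 70.8) were granulocyte-gene-rich. For osteocyte-rich spots it was 2 of 26 in section 1 (7.69%, 0.946 to 25.1) and 3 of 26 in section 2 (11.5%, 2.45 to 30.2). Of all kept spots there, 13.4% and 4.57% were granulocyte-gene-rich in sections 1 and 2.

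The share of *Camp* among the 4 genes differed with hemoglobin, a description since these genes chose the spots. In granulocyte-gene-rich spots that were also hemoglobin-rich, *Camp* made up 51.6% (46.7 to 56.4) of the UMIs of the 4 genes, against 24.7% (23.2 to 26.2) in the rest. In Nf1Postn section 1 this was 44.9% (37.4 to 52.6) against 21.2% (18.3 to 24.3), and in Nf1Postn section 2 it was 57.4% (50.6 to 64) against 47.9% (36.1 to 60), where the intervals overlapped. Of the 98 spots in both sets, 20 had no UMI of *S100a8* or *S100a9*, against 10 of the other 198, but the spots in both sets had a median of 3 UMIs of the 4 genes against 6. In kept spots that had not been chosen for granulocyte genes, *Camp* was 47.4% (39.3 to 55.6) of the 4 genes in 198 hemoglobin-rich spots and 21.9% (20.7 to 23.3) in 5426 others, a contrast that mixes the calluses. Within Nf1Postn it was 38.1% (23.6 to 54.4) against 26.1% (22.8 to 29.6) in section 1, where the intervals overlapped, and 50% (39.5 to 60.5) against 30.6% (26.6 to 34.9) in section 2. In control section 2 it was 52.9% (27.8 to 77) from 17 UMIs against 19.2% (16.6 to 21.9). *H1f1* was at 1116 CPM in those hemoglobin-rich spots and 193 in the others. The hemoglobin-rich spots were shallower, with a median of 1900 UMIs against 4848, and the part of depth in this result was not tested.

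**Figure D4:**
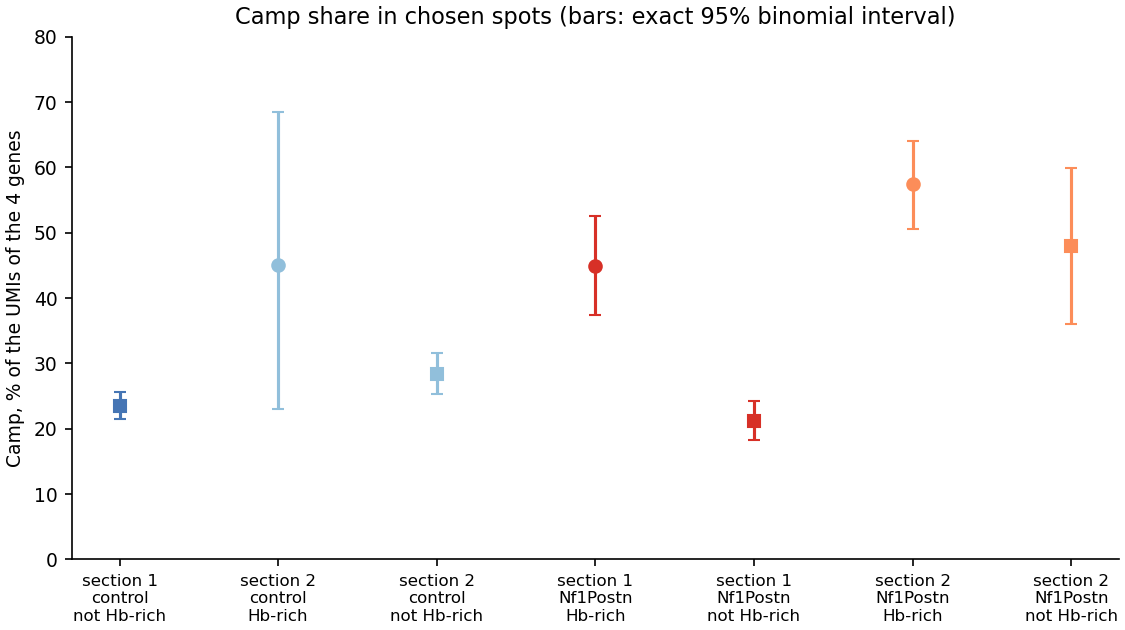
*Camp* as a percent of the UMIs of *S100a8*, *S100a9*, *Ngp* and *Camp* in granulocyte-gene-rich spots, by callus section and by whether a spot was also hemoglobin-rich (Hb-rich, circles) or not (squares), with exact binomial intervals. The share was 44.9% and 57.4% in the Hb-rich Nf1Postn spots and 21.2% to 47.9% in spots that were not Hb-rich.

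Genes of other blood lineages were looked at next. *Cd79a* was at 14.5, 66.5, 48.9 and 66.9 CPM in the chosen spots, against 5.08 to 12.1 elsewhere. Of 4 B cell genes counted 3 were higher. *Mki67*, a mark of dividing cells, was at 79.7, 125, 124 and 349 CPM against 31.4 to 62.5, and was the 1 of 6 cell cycle genes counted higher. *Pf4*, a platelet chemokine that macrophages also express, was at 290, 99.8, 280 and 215 CPM against 117 to 170, and 0 of 2 megakaryocyte genes were higher. T and NK cell genes were at most 6 UMIs each. Of monocyte and macrophage genes 0 of 8 were higher, with *Csf1r* at 152, 212, 138 and 37.2 CPM against 149, 156, 128 and 77.5. Over all genes counted 1.52% were higher, so 0 of 2 and 0 of 8 are no result about these lineages. Of the cartilage genes, 4 of 5 were counted lower, and *Col2a1* (type II collagen) was at 12669, 6868, 2098 and 4793 CPM against 40237, 25483, 2443 and 6814. *Matn3*, *Col9a3* and *C1qtnf3*, genes of cartilage cells, had pooled log2 ratios of -2.34, -1.77 and -1.77. None of the cartilage genes was 2-fold lower in all 4 callus sections. Within Nf1Postn *Matn3* was at 20 CPM against 38.5 in section 1 and 74.3 against 76.5 in section 2, where *Acan* (aggrecan) was at 334 against 233 and *Col10a1* (type X collagen) at 66.9 against 31.7.

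The 5 largest patches differed in the tissue around the granulocyte genes. Patches were joined by position, and the genes named for them were read from the genes with 15 or more UMIs in the patch, against kept spots of the same callus section that had not been chosen, after seeing the values. In 4 of the 5 the leading genes included *S100a8*, *S100a9*, *Ngp*, *Camp*, *Ltf*, *Lcn2* and *Pglyrp1*, and no spot of these 4 was hemoglobin-rich.

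The largest patch, of 47 spots, lay in the muscle-rich Nf1Postn callus of section 1 and had 493 UMIs of the 4 genes, a median of 7 a spot. *S100a9* was at 1149 CPM, *Camp* at 421 and *Hbb-bs* at 213 CPM. Among the genes that led it over the kept spots of that callus section that had not been chosen were *Myog* (myogenin, a muscle differentiation factor) by 1.95 on the log2 scale, *Myh8* (perinatal myosin) by 1.96, *Chrna1* (an acetylcholine receptor subunit) by 2.13 and *Musk* (a kinase of the neuromuscular junction) by 1.54. No patch of comparable size was found in the Nf1Postn callus of section 2. Without the 47 spots, 104 of the other 1079 kept spots of Nf1Postn section 1 were chosen (9.64%), and the share ratio over both sections was 1.52 on the log2 scale.

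The patch of 20 spots, in control section 2, had 563 UMIs of the 4 genes, with *S100a9* at 1574 and *Camp* at 1215 CPM. Against kept spots of its callus section that had not been chosen, it was higher in *Mmp13* (collagenase 3 of hypertrophic cartilage and osteoblasts) by 1.76 on the log2 scale, at 1332 CPM, and in *Sfrp4* (a secreted regulator of Wnt signalling) by 1.85. *Elane* and *Mpo* had 0 UMIs in it.

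The patches of 15 and 13 spots of control section 1 had 884 and 639 UMIs of the 4 genes, *S100a9* at 2876 and 3804 CPM and *Ltf* at 853 and 789. The patch of 15 spots also carried adipocyte genes, *Adipoq* (adiponectin) at 316 CPM and *Cfd* (adipsin) at 482, and complement *C3* at 716 and *Hp* at 440 CPM. The patch of 13 spots lay at the edge of the callus that faced the Nf1Postn tissue, and its 639 UMIs were part of the 1635 of all chosen spots of control section 1, so the control levels there rest in part on how this edge was assigned. It carried *Cybb* at 259 CPM, *Vwf* (von Willebrand factor of endothelium) at 246 and *Oasl2*, an interferon-induced gene, at 401. *Elane* was at 55 and 116 CPM, from 8 and 9 UMIs. *Alas2* had 0 UMIs in both, with upper limits of 25.4 and 47.7 CPM. A primary and a secondary granule gene were thus found in the same patches, with no *Alas2* UMI.

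The 13-spot patch of Nf1Postn section 2 was unlike these. All 13 spots were hemoglobin-rich, with *Hbb-bs* at 10373 CPM, *Alas2* at 395 and *Slc4a1* at 148. It rested on 63 UMIs of the 4 genes, of which *Camp* made up 63.5% (50.4 to 75.3), against 19.3% to 31.3% in the other 4 patches. *H1f1* was at 3556 CPM and *H4f16* at 1136 CPM, log2 ratios of 4.24 and 3.8 over kept spots of its callus section that had not been chosen, and *Mki67* was at 642 CPM. Smaller Nf1Postn patches of 6 to 8 spots included 5 in which 5 or more spots were hemoglobin-rich, with *Hbb-bs* at 8996 to 19444 CPM.

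**Figure D5:**
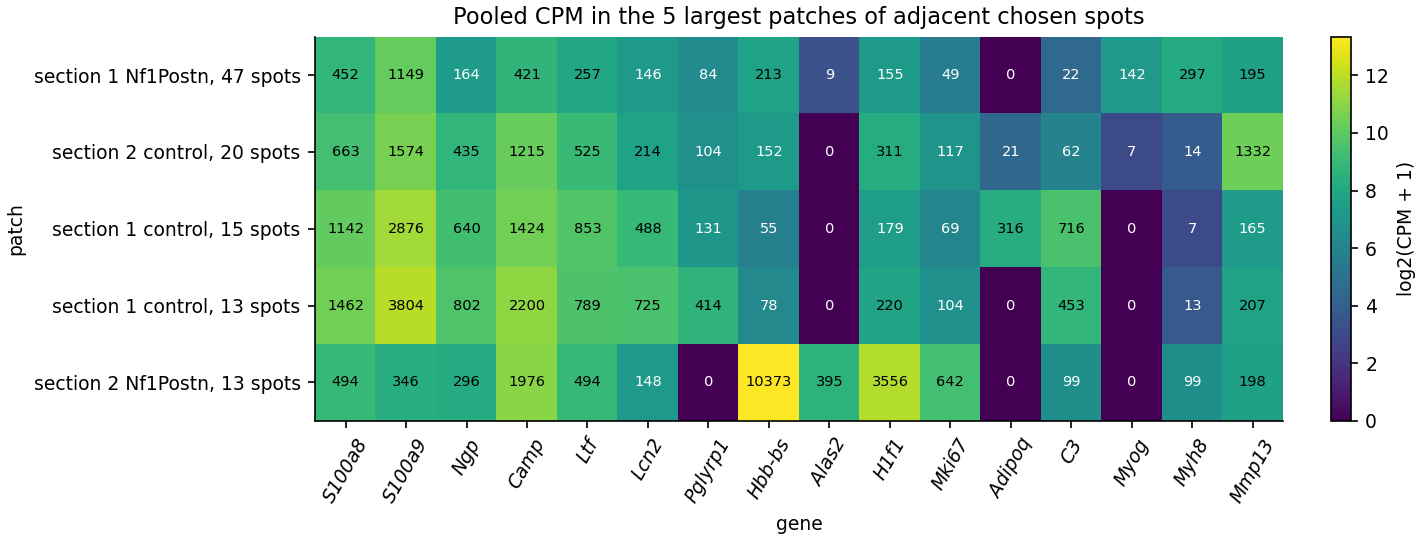
Pooled CPM of 16 genes in the 5 largest patches of adjacent granulocyte-gene-rich spots (numbers in cells are CPM, colour is log2(CPM + 1)). The patch of 13 spots of Nf1Postn section 2 has *Hbb-bs* at 10373 CPM and *H1f1* at 3556 CPM, where the other 4 have at most 213 and 311.

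The granulocyte-gene-rich spots of the 2 calluses were also set side by side. Of 4061 genes with 20 or more UMIs in these spots of each section, 163 (4.01%) were at least 2-fold higher in Nf1Postn in each section and 85 (2.09%) were lower, with no test since there was 1 mouse per genotype. The balance of these counts turned under other choices, with 186 higher and 192 lower when spots were ranked by other secondary granule genes, 42 and 2482 by the mean of log2(CPM + 1), and 392 and 662 without section 1 or 406 and 584 without section 2. All 5 muscle genes and 5 of 6 erythroid genes were among the higher ones. *Ckm* (muscle creatine kinase) was at 1297 and 3205 CPM in control and 10676 and 14683 in Nf1Postn, where other kept spots had 2256 and 3263, and 12354 and 22208 CPM. The 10 largest differences outside the lists were of muscle genes, *Myo18b*, *Fitm1*, *Tmem182*, *Mlf1*, *Cacng1*, *Casq1*, *Sypl2* and *Csrp3*, and of *Car2* and *Dmtn* (dematin of the red cell skeleton). *Casq1* (calsequestrin) was 2.84 higher on the log2 scale in Nf1Postn within the chosen spots and 2.09 in the others, and *Fitm1* 3.52 and 2.21. *Car2* was 3.11 higher (2.42 to 3.87) within the chosen spots and 0.58 in the others, and *Dmtn* 2.86 and 1.24.

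The genes lower in Nf1Postn granulocyte-gene-rich spots included *C3* at 540 and 150 CPM in control and 37.8 and 59.4 in Nf1Postn, a log2 difference of -3.07 (-3.73 to -2.46) beside -1.67 in other kept spots. By section it was -3.84 beside -1.35 and -1.33 beside -1.94, and 104 of the 149 *C3* UMIs of control section 1 lay in its patch of 15 spots. *Sfrp2*, a secreted regulator of Wnt signalling, was at 1699 and 1480 CPM in control and 200 and 171 in Nf1Postn, -3.05 beside -2.29 in the others. *Ccl8*, a chemokine of macrophages, was at 420 and 204 CPM in control and 60 and 22.3 in Nf1Postn, -2.64 beside -1.39. *Lrg1*, a glycoprotein of neutrophil granules and inflamed vessels, was at 445 and 133 CPM in control and 62.2 and 22.3 in Nf1Postn, -2.5 beside -0.9. In control section 1, the patch of 15 spots held 82 of the 116 *Ccl8* UMIs and 62 of the 123 *Lrg1* UMIs. The patch of 13 spots there, at the edge that faced the Nf1Postn tissue, held 38 of the *Lrg1* UMIs. The remaining 6 of the 10 largest were *Smpd3*, *Cyp1b1*, *Camk4*, *Sox9* (the cartilage factor), *Col22a1* and *Ptx3*, at -2.05 to -1.76. Of the granulocyte genes, *S100a9* (-1.47, -1.63 to -1.31) and *Lcn2* (-1.69, -2.13 to -1.27) of the lists and *Pglyrp1* (-1.39, -2 to -0.8) outside them were at least 2-fold lower in both sections. The control patches of 13 spots in section 1 and 5 spots in section 2 that lay close to the Nf1Postn tissue held 32 of 54 and 10 of 27 *Pglyrp1* UMIs and 56 of 133 and 9 of 47 *Lcn2* UMIs. Without both patches, a choice made after seeing the data, *Pglyrp1* differed by -0.78 (-1.63 to 0.09) and -0.9 (-2.53 to 0.51) in sections 1 and 2. *Lcn2* differed by -1.8 and -0.94, so neither was 2-fold lower in both. *S100a9* still was, at -1.45 and -1.82. *Ngp*, which was not counted lower with the patches in, then was, at -1.4 and -1.04. With all chosen spots *Ltf* differed by -1.56 in section 1 and -0.82 in section 2. In other kept spots *Lcn2* was 0.43, *Pglyrp1* 0.3 and *Ltf* 1.25 higher in Nf1Postn. *S100a9* and *Ngp* chose the spots, and the calluses differed in how far their spots lay above the threshold, so their differences are a description. *Lcn2*, *Pglyrp1* and *Ltf* did not choose the spots but were high in the same ones. Their differences are thus a description too, and the part of the choice of spots in them was not tested.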

How the data were processed

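The authors mapped spatial libraries of the 10x Visium platform with Space Ranger 1.3.0, per the labels, and deposited a table of genes by spots with estimated counts, not normalised, from Partek Flow (mm39 coordinates). In it 9 named genes hold values that are not whole, because the authors averaged several Ensembl entries of the same symbol, so some totals are not whole. The deposited genotype column gave the callus of each spot. The way spots near the boundary were assigned to a callus is not given in the sources used here. An entry without a gene name (6.81e-05% and 3.76e-05% of UMIs in sections 1 and 2) was dropped.

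Counts were summed over spots and given as CPM with exact Poisson intervals. Shares have exact Clopper-Pearson intervals. Ratios have exact conditional binomial intervals. All were computed with Python 3.11.15 and scipy 1.17.1, and edgeR 4.0.16 was used only for TMM factors as an alternative scaling. The functions were tested on simulated data. Total UMIs were 1.7e+07 and 1.81e+07 in sections 1 and 2. A fold against 0 UMIs was set against 3 UMIs and used only where that bound kept its direction. The labels call the sections biological replicates, while the study's methods describe sections of a shared block, and the latter was followed, so no test was run. The labels give each section both genotypes.

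The named genes were all genes of 27 lists (175 of 187 genes were in the tables and 12 were not analysed here), the 12 highest and 6 lowest ratios outside the lists among counted genes with 100 or more UMIs (only 2 of the lower ones qualified), and the 10 largest differences each way between calluses. Values of 2 genes are not reported here. Members and lists were chosen with earlier results of these data known.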

Additional observations from a re-analysis of the deposited data

Results flagged for a closer look

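*G0s2*, a regulator of fat breakdown that neutrophils also express, went in opposite directions in the calluses. Its log2 ratio of granulocyte-gene-rich over other kept spots was 1.08 and 0.65 in control sections 1 and 2 and -1.73 and -0.98 in Nf1Postn. It rests on 33 UMIs in the chosen spots, and the difference between the calluses was not tested.

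Spots with fewer than 1000 UMIs, which the rule left out, also carried the 4 choosing genes. In Nf1Postn section 2, 113 such spots held 82 UMIs of them, or 959 CPM (763 to 1191), against 179 CPM (89.4 to 320) in 83 control spots of that section. In section 1 the levels were 730 CPM (590 to 892) in Nf1Postn and 438 CPM (226 to 765) in control.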

How the results depend on the processing

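Over 9 results and the alternatives tried, 81 of 135 values stayed within the spread between sections or within 1.5 times the count as reported, and 54 moved. The share in Nf1Postn over control (1.84 on the log2 scale) was 1.12 to 2.3 with a section left out and 0.67 both when spots were ranked by other secondary granule genes and with 5 or more UMIs of the 4 genes, and under both choices the order of the calluses turned in section 2. The ranking by other secondary granule genes mostly took spots that the 4 genes had not chosen. The percent of neighbour pairs in which both spots were chosen (39.8%) was 33% with the top 2.5%, 44.9% with the top 10%, 36.5% with the top 5% of each section, 37.1% and 43% with a minimum of 500 and 2000 UMIs, 26.2% after thinning, 25.1% with other secondary granule genes, 41.3% with 5 or more UMIs, 37.4% without *Camp*, 34.9% without the largest patch, 38.4% without the control patches of 5 or more spots within 5 grid steps of Nf1Postn tissue and 36.1% to 36.8% with a section left out. The percent also hemoglobin-rich (33.1%) was 26.6% to 41.4% with a section left out, 19.5% with 5 or more UMIs and 20.9% when ranked without *Camp*. Genes counted higher in the chosen spots (180) were 102 with the top 10%, 103 with 2000 UMIs, 96 after thinning (70 of them among the 180), 101 with TMM factors, 1539 with no minimum count, 11 by the mean of log2(CPM + 1) over spots, 23 within each callus section and 549 to 754 with a section left out. Genes counted lower (51) were 78 with the top 2.5%, 25 with the top 10%, 28 after thinning, 101 with TMM factors, 351 by the mean of log2, 0 within each callus section and 509 to 546 with a section left out. Genes higher in Nf1Postn chosen spots (163) were 98 with the top 2.5%, 446 with no minimum, 42 by the mean of log2 and 392 to 406 with a section left out. Genes lower there (85) were 141 with the top 5% of each section, 192 with other secondary granule genes, 281 with no minimum, 2482 by the mean of log2 and 584 to 662 with a section left out. With a section left out a gene had to pass in 1 section in place of 2. The cause was not tested for the others. The rankings by 5 or more UMIs, without *Camp*, without the largest patch and without the control patches near Nf1Postn tissue and the comparison within callus sections were chosen after seeing the data. No paired analysis was possible because the result comes from no test: the samples form 1 group, and ratios within each section are given in its place. Low counts limit what the Nf1Postn spots can show, since 47.9% of them were chosen on 3 or fewer UMIs.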
